A study of Homo sapiens with 4 samples.

Results

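Complex I of the respiratory chain (NADH:ubiquinone oxidoreductase) was described through its nuclear genes, taken as all protein-coding genes whose GENCODE symbol starts with NDUF. There were 48 such genes among the 60564 gene identifiers of the count files. They comprised 37 subunits of complex I, 8 assembly factors (NDUFAF1 to NDUFAF8), the 2 genes NDUFA4 and NDUFA4L2, which carry an NDUF name but are not counted here as complex I subunits, and 1 readthrough gene, NDUFC2-KCTD14. The genes lay on 22 chromosomes, with 6 on chromosome 19 and 5 on chromosome 11.

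Complex I takes electrons from NADH, passes them along a chain of iron-sulfur clusters to ubiquinone and pumps protons across the inner mitochondrial membrane. Its peripheral arm stands in the matrix and holds the flavin and the iron-sulfur clusters, and its membrane arm holds the proton channels. The core subunits of the membrane arm are encoded by the mitochondrial genome. Every other subunit comes from nuclear genes, as do the assembly factors, which join the modules without staying in the finished enzyme. Pluripotent stem cells are known for high glycolysis, with a balance between glycolysis and respiration that differs between the naïve and the primed state.

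RNA was measured in Elf1 cells, a naïve human embryonic stem cell (ESC) line. In the paper, the line was maintained on mouse embryonic feeder cells and moved to Matrigel without feeders before encapsulation. 2-D grown cells adhered to plastic coated with Matrigel, and 3-D grown cells were encapsulated as single cells in a scaffold that assembles itself from PEG-8-Acr and PEG-8-SH, star-shaped polyethylene glycol polymers, and kept there for 21 days. Both conditions used ESC expansion medium, and each had 2 biological replicates of this 1 line, so 4 libraries were compared. 3-D culture differed from 2-D culture in more than the scaffold, for instance in the coated plate and in passaging, which was regular in 2-D and absent in the scaffolds, and these differences cannot be told apart.

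The libraries held 18276147 to 33833778 counts, with lower totals in 3-D than in 2-D. NDUF genes took 0.203% and 0.201% of the counts in 2-D replicates 1 and 2, and 0.178% and 0.170% in 3-D replicates 1 and 2. Levels are given as CPM, the counts of a gene scaled to a common library total with edgeR's TMM factors, and a gene was called when edgeR's quasi-likelihood test gave a Benjamini-Hochberg adjusted p below 0.05 over all 22555 genes tested. Markers of pluripotent stem cells, such as POU5F1 and NANOG, summed to 4843 to 5145 CPM. Of these 8 markers, only L1TD1 was called, higher in 3-D (log2 fold change 0.21). Summed over 5 markers each, endoderm markers reached 8.02 to 9.93 CPM, mesoderm markers 56.2 to 61.8, neural ectoderm markers 0.876 to 1.67 and trophoblast markers 3.05 to 3.85. Neural ectoderm and trophoblast each had 1 marker at 0 in every library. The 5 fibroblast markers summed to 446 to 495 CPM, and 2 of them, COL1A1 and COL3A1, were called higher in 3-D. COL1A2, with 301 to 325 CPM the largest part of that sum, was not called (log2 fold change −0.04, adjusted p = 0.649). DCN and LUM had at most 6 and 17 counts in a library and were not tested. The part of these markers in the results for NDUF genes was not tested.

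Most nuclear subunits of complex I had slightly lower levels in 3-D than in 2-D grown cells. Of the 35 subunits that passed the filter on low counts, 28 had a lower fitted level in 3-D and 7 a higher one. Lower calls were made for 10 subunits and higher calls for 0, where 7.9% of all tested genes were called, 3.36% lower and 4.54% higher. The 10 called subunits were NDUFB2, NDUFB6, NDUFA1, NDUFA11, NDUFA2, NDUFA9, NDUFB8, NDUFB5, NDUFS5 and NDUFS1. The median log2 fold change of 3-D over 2-D over the tested subunits was −0.16, with a range from −0.54 to 0.14, against −0.00014 over all tested genes. Both 3-D libraries lay below both 2-D libraries for 22 subunits, where 25.1% of all tested genes did so, and above them for 4, where 25.4% did so. Groups overlapped for the remaining 9. In bulk RNA, fewer cells that express a gene and less RNA per cell cannot be told apart.

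The number of calls depended on the test and on single libraries. DESeq2 called 3 of the 10 subunits (NDUFB2, NDUFB6 and NDUFA9) and no others, where it called 1.2% of all genes lower. With library size only as scaling, 19 subunits were called lower, where 8.33% of all genes were. Without 2-D replicate 1, 5 subunits were called, where 1.45% of all genes were called lower, and without 3-D replicate 1, 17 were, where 4.73% of all genes were called lower. NDUFB2, NDUFB6 and NDUFA9 were called under each of 16 alternatives, and each of the 10 had a negative log2 fold change under all of them. NDUFA11 and NDUFS1 lost their calls when either 2-D library was left out, NDUFA2 without 2-D replicate 1, NDUFB5 without 2-D replicate 2, and NDUFB8 and NDUFS5 without 2-D replicate 1 or 3-D replicate 2.

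**Figure D1:**
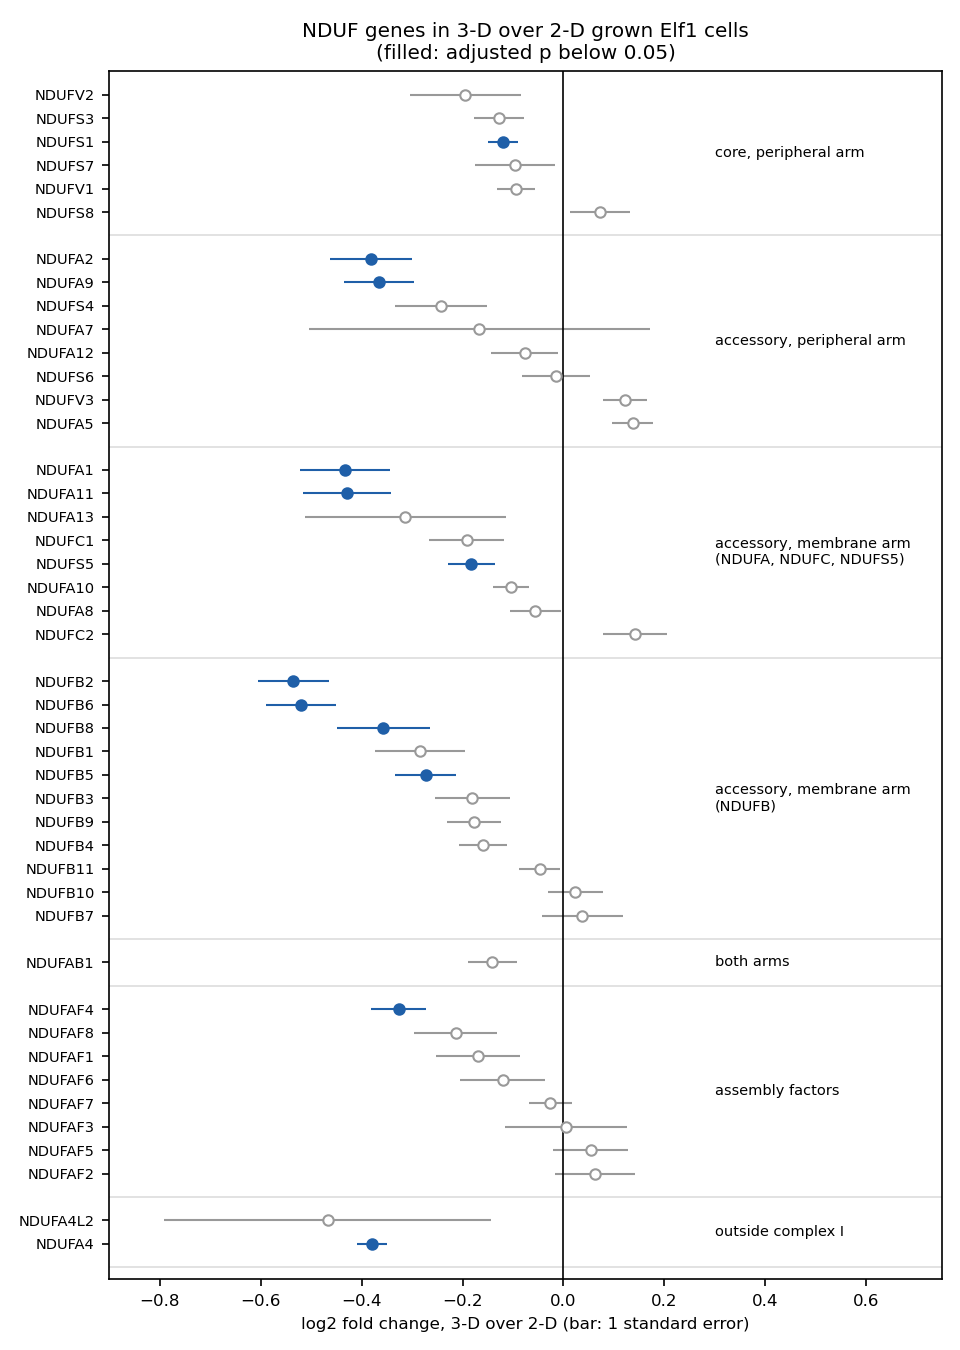
Fitted log2 fold change of 3-D over 2-D for 44 of the 45 tested NDUF genes, grouped by place in the complex, with bars of 1 standard error and filled points for an adjusted p below 0.05. The 12 filled points all lie below 0, from −0.54 for NDUFB2 to −0.12 for NDUFS1.

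The core subunits of the peripheral arm carry the flavin and the iron-sulfur clusters. Of these 7, 5 were lower, 2 were higher and 1 was called, and their median log2 fold change was −0.10. The called gene was NDUFS1 (ENSG00000023228.14, chr2:206114817-206159509 on hg38, minus strand), the largest subunit of the complex, which binds iron-sulfur clusters. NDUFS1 measured 170 and 168 CPM in 2-D replicates 1 and 2 and 156 and 155 CPM in 3-D replicates 1 and 2. The 4 libraries fell into tight pairs that did not overlap. This was a change of −7.95%, or a log2 fold change of −0.12 ± 0.03 (SE, n = 2 per condition), with an adjusted p of 0.0254 by edgeR's quasi-likelihood test. NDUFV1, which holds the flavin and binds NADH, had a log2 fold change of −0.09 (adjusted p = 0.169), and NDUFS3, of the module that joins the cluster chain to ubiquinone, had −0.13 (adjusted p = 0.145).

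The accessory subunits of the peripheral arm surround that core. Of the 8 tested, 6 were lower, 2 were higher and 2 were called. NDUFA9 (ENSG00000139180.11, chr12:4649095-4694317, plus strand), a nucleotide-binding protein near the joint of the arms, measured 25.3 and 25.2 CPM in 2-D and 19.4 and 19.8 CPM in 3-D. Its replicates differed by far less than the conditions. The change was −22.4%, with a log2 fold change of −0.37 ± 0.07 (SE) and an adjusted p of 0.00583. NDUFA2 (ENSG00000131495.8, chr5:140638740-140647771, minus strand), a protein with a thioredoxin-like fold, measured 25.2 and 23.1 CPM in 2-D and 19.6 and 17.5 CPM in 3-D. The lower 2-D library stayed above the higher 3-D library. NDUFA2 had a log2 fold change of −0.38 ± 0.08 (SE) and an adjusted p of 0.0122.

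Among the other accessory members of this arm, NDUFA5 had 54.7 and 54.2 CPM in 2-D and 60.6 and 59.1 CPM in 3-D. Both 3-D libraries were above both 2-D libraries, but the log2 fold change of 0.14 ± 0.04 (SE) did not pass the test (adjusted p = 0.0634). NDUFV3, which sits on the flavin-holding module, had 49.8 and 49.3 CPM in 2-D and 54.5 and 53.3 CPM in 3-D. It showed the same separation, with a log2 fold change of 0.12 and an adjusted p of 0.121. NDUFS4, a subunit of the same module, lay at −0.24 (adjusted p = 0.137), with 28.8 and 29.9 CPM in 2-D and 27.6 and 21.9 CPM in 3-D, so that most of its difference came from 3-D replicate 2. Without that library it lay at −0.09, and at −0.43 without 3-D replicate 1.

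In the membrane arm, the accessory subunits named NDUFB belong to its outer stretch, and NDUFA1, NDUFA11, NDUFS5, NDUFC1 and NDUFC2 are among those nearer the joint. Of 19 tested membrane arm subunits, 16 were lower, 3 were higher and 7 were called lower. Their median log2 fold change was −0.18, beside −0.10 over the 15 tested in the peripheral arm. The tested genes of the arms also differed in median canonical transcript length, with 651 bases (membrane) and 857 bases (peripheral). Median log2 ratios of 3-D replicate 2 over 3-D replicate 1 were −0.08 (membrane) and −0.03 (peripheral). Neither the difference between the arms nor the part of transcript length in it was tested. Among the 11 NDUFB genes, 4 were called.

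NDUFB2 (ENSG00000090266.13, chr7:140690777-140722790, plus strand), a small accessory protein, had the lowest fold change of all called NDUF genes. It measured 38.4 and 35.5 CPM in 2-D and 26.7 and 24.2 CPM in 3-D. Every 3-D library was well below every 2-D library, a change of −31.0% with a log2 fold change of −0.54 ± 0.07 (SE) and an adjusted p of 0.000703. NDUFB6 (ENSG00000165264.11, chr9:32553001-32573184, minus strand) measured 28.7 and 28.8 CPM in 2-D and 20.7 and 19.3 CPM in 3-D. The 2-D replicates of this accessory subunit were nearly equal, and its log2 fold change was −0.52 ± 0.07 (SE) with an adjusted p of 0.000704.

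NDUFB8, which is often used as a protein marker of assembled complex I (ENSG00000166136.16, chr10:100523740-100530000, minus strand), measured 18.5 and 17.1 CPM in 2-D and 14.9 and 12.8 CPM in 3-D. Its replicates were further apart than those of NDUFB6, and its log2 fold change of −0.36 ± 0.09 (SE) had an adjusted p of 0.0338. NDUFB5 (ENSG00000136521.13, chr3:179604690-179627647, plus strand), another accessory membrane protein, measured 37.8 and 39.5 CPM in 2-D and 31.0 and 33.0 CPM in 3-D. Here the conditions were separate, with a log2 fold change of −0.27 ± 0.06 (SE) and an adjusted p of 0.0161. NDUFB1 measured 33.3 and 35.0 CPM in 2-D and 31.2 and 24.7 CPM in 3-D, and its log2 fold change of −0.28 ± 0.09 (SE) was not called (adjusted p = 0.0765). The value moved to −0.13 when 3-D replicate 2 was left out and to −0.47 when 3-D replicate 1 was, and NDUFB1 was called under 5 of the 16 alternatives. NDUFB7, NDUFB10 and NDUFB11 differed least, with log2 fold changes of 0.04, 0.02 and −0.05.

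Nearer the joint, NDUFA1 (ENSG00000125356.7, chrX:119871832-119876662, plus strand), a small protein with a membrane anchor, measured 84.8 and 75.4 CPM in 2-D and 67.0 and 51.3 CPM in 3-D. The conditions did not overlap, but NDUFA1 also had a wide gap within 3-D. Its log2 fold change was −0.43 ± 0.09 (SE) with an adjusted p of 0.0104, and −0.26 without 3-D replicate 2. DESeq2 gave NDUFA1 an adjusted p of 0.41. NDUFA11 (ENSG00000174886.13, chr19:5891276-5904006, minus strand), a membrane protein, measured 13.9 and 14.0 CPM in 2-D and 10.3 and 10.4 CPM in 3-D. Replicates were nearly equal in both conditions, and the log2 fold change was −0.43 ± 0.09 (SE) with an adjusted p of 0.00984.

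NDUFS5 (ENSG00000168653.11, chr1:39026318-39034636, plus strand), a subunit on the side of the intermembrane space, had the highest level per length of all subunits. It measured 136 and 131 CPM in 2-D and 125 and 110 CPM in 3-D. The 3-D replicates were further apart than the 2-D replicates, and the log2 fold change was −0.18 ± 0.05 (SE) with an adjusted p of 0.0322, with −0.10 (adjusted p = 0.0699) without 3-D replicate 2 and −0.28 without 3-D replicate 1. NDUFA13, also studied as GRIM-19, measured 3.34 and 2.66 CPM in 2-D and 2.14 and 2.73 CPM in 3-D, so its conditions overlapped (log2 fold change −0.31 ± 0.20, adjusted p = 0.415). NDUFC2 measured 29.1 and 29.2 CPM in 2-D and 33.0 and 31.2 CPM in 3-D, with the highest log2 fold change among the subunits, 0.14 ± 0.06 (SE), and no call (adjusted p = 0.216). NDUFAB1, the mitochondrial acyl carrier protein, which is bound in both arms, measured 78.1 and 83.4 CPM in 2-D and 76.7 and 69.6 CPM in 3-D, also without a call (log2 fold change −0.14, adjusted p = 0.103). It lay at −0.08 without 3-D replicate 2 and at −0.22 without 3-D replicate 1.

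**Figure D2:**
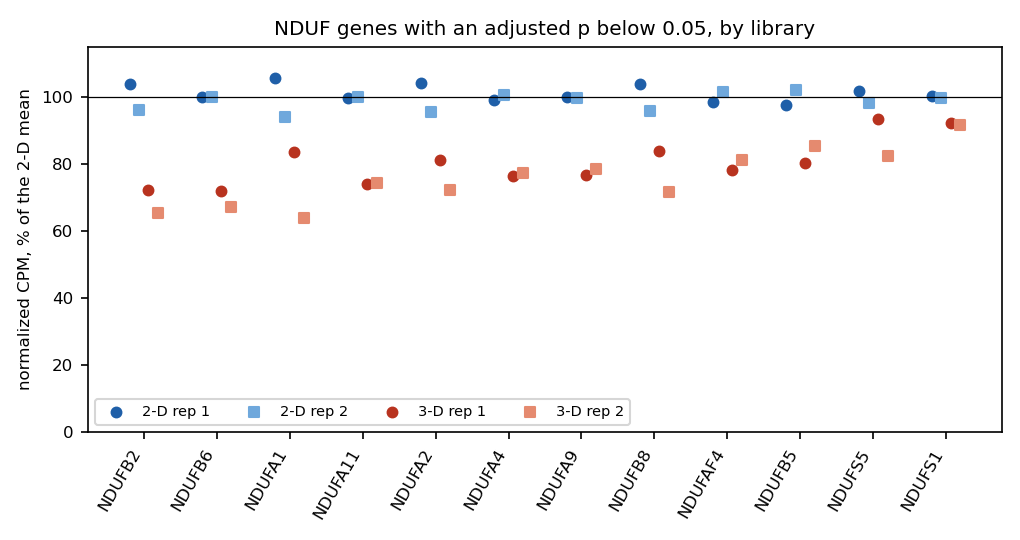
Normalized CPM of the 12 called NDUF genes in each library, as a percentage of the mean of the 2-D libraries of that gene (100%), with circles for replicate 1 and squares for replicate 2. The 3-D libraries lie between 64.0% and 93.6%, and the 2-D libraries between 94.1% and 106%.

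Assembly factors were described apart from the subunits. Of the 8 NDUFAF genes, 5 were lower, 3 were higher and 1 was called lower. Their median log2 fold change was −0.07, with a range from −0.33 to 0.06. Over all tested genes, 50% were lower and 3.36% were called lower. NDUFAF4 (ENSG00000123545.6, chr6:96889315-96897891, minus strand), which acts with NDUFAF3 early in the assembly of the peripheral arm, measured 42.2 and 43.5 CPM in 2-D and 33.6 and 34.8 CPM in 3-D. Replicates were close and the conditions far apart, with a change of −20.3%, a log2 fold change of −0.33 ± 0.06 (SE) and an adjusted p of 0.00318. NDUFAF3, its partner, measured 5.87 and 5.84 CPM in 2-D and 5.89 and 5.86 CPM in 3-D, which gives a log2 fold change of 0.00 ± 0.12 (SE).

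For the others, NDUFAF1, part of the complex that assembles the membrane arm, measured 17.5 and 17.4 CPM in 2-D and 16.4 and 14.5 CPM in 3-D. It lay at −0.17 (adjusted p = 0.274), with −0.09 without 3-D replicate 2 and −0.26 without 3-D replicate 1. NDUFAF8 lay at −0.21 (adjusted p = 0.152). NDUFAF6 lay at −0.12, NDUFAF7, a methyltransferase, at −0.03, NDUFAF5 at 0.05 and NDUFAF2 at 0.06, all with an adjusted p of 0.471 or more. A list of 12 assembly factors with other names had 10 lower, 2 higher and 2 called lower, with a median of −0.06. Of all tested genes, 3.36% were called lower. TMEM126B, which works with NDUFAF1, measured 45.2 and 44.4 CPM in 2-D and 38.4 and 36.3 CPM in 3-D (log2 fold change −0.26, adjusted p = 0.0105). NUBPL, which delivers iron-sulfur clusters, measured 15.6 and 15.6 CPM in 2-D and 12.3 and 12.7 CPM in 3-D (log2 fold change −0.32, adjusted p = 0.0317). DESeq2 called 0 of these 12, where it called 1.2% of all tested genes lower. In edgeR's quasi-likelihood test, 3 of the 12 had an unadjusted p below 0.05, as did 4808 of all 22555 tested genes.

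The genes with NDUF names outside complex I differed in level. NDUFA4 (ENSG00000189043.10, chr7:10931943-10940153, minus strand), now placed in complex IV, measured 154 and 157 CPM in 2-D and 119 and 120 CPM in 3-D. Replicates were nearly equal and the conditions far apart. NDUFA4 had the lowest p of the 45 tested NDUF genes, with a log2 fold change of −0.38 ± 0.03 (SE) and an adjusted p of 1.3e-05, and the gene was called under each of the 16 alternatives. NDUFA4L2, a hypoxia-inducible relative of NDUFA4, measured 1.02 and 1.59 CPM in 2-D and 1.07 and 0.781 CPM in 3-D. Its conditions overlapped, and the log2 fold change of −0.47 ± 0.32 (SE) was not called (adjusted p = 0.464).

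Summed over the 37 subunits, NDUF RNA reached 1648 and 1616 CPM in 2-D replicates 1 and 2 and 1538 and 1440 CPM in 3-D replicates 1 and 2. The mean was 1632 ± 22.4 (SD, n = 2) in 2-D and 1489 ± 69.6 in 3-D, a difference of −8.78%, or of −5.77% without 3-D replicate 2. An exact two-sided permutation test gave p = 0.333, the smallest that 2 against 2 libraries allow. The peripheral arm summed to 686 and 677 CPM in 2-D and 668 and 637 CPM in 3-D, a difference of −4.24%, with −1.98% without 3-D replicate 2 and −6.51% without 3-D replicate 1. The sum of the membrane arm differed by −12.3%, with −8.81% to −15.7% when a library was left out, and that of the NDUFAF genes by −7.06%. NDUFAF genes summed to a mean of 189 CPM in 2-D and 176 CPM in 3-D. Of this, NDUFAF4 held 42.8 and 34.2 CPM, so much of the difference came from that gene. Nuclear subunits of complexes III to V differed by −9.10%, with 15 of 36 (41.7%) called lower and 1 higher. Mitochondrial ribosomal proteins differed by −1.03%, with 6 of 76 tested genes (7.89%) called lower and 2 higher. Over all tested genes, 3.36% were called lower and 4.54% higher.

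The mitochondrially encoded subunits of complex I differed in the opposite direction. All 7 MT-ND genes were called higher in 3-D, from a log2 fold change of 0.44 for MT-ND4L to 0.96 for MT-ND2, with a median of 0.59. DESeq2 called 5 of them higher, where it called 2.05% of all tested genes higher. Summed MT-ND RNA per sum of the 37 nuclear subunits was 14.5 and 13.9 in 2-D replicates 1 and 2 and 25.8 and 25.8 in 3-D replicates 1 and 2. This ratio of CPM sums compares libraries and is no ratio of molecules, since it is not scaled by length.

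**Figure D3:**
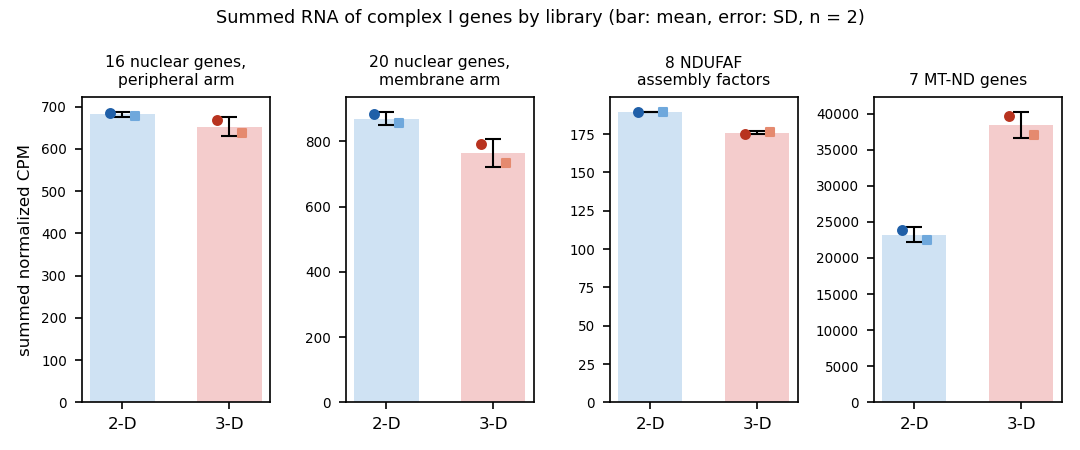
Summed normalized CPM of nuclear complex I genes of each arm, of NDUFAF assembly factors and of MT-ND genes, with bars for the mean, error bars for the SD (n = 2) and points for the libraries. The membrane arm lies at 733 and 793 CPM in 3-D against 856 and 884 CPM in 2-D, while the MT-ND sum lies at 37086 and 39682 CPM in 3-D against 22459 and 23933 CPM in 2-D.

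Replicates of a condition also differed from each other among these genes. Of the 35 tested subunits, 23 were lower in 3-D replicate 2 than in 3-D replicate 1, with a median log2 ratio of −0.06, and 22 were lower in 2-D replicate 2 than in 2-D replicate 1, with a median of −0.01. For the 20 subunits whose canonical transcript is shorter than 700 bases, 14 were lower in 3-D replicate 2, with a median of −0.14, and 13 in 2-D replicate 2, with a median of −0.04. All tested protein-coding genes under 700 bases had a median of −0.07 between the 3-D replicates, and genes of 700 bases or more had 0.01. Between conditions, the median log2 fold change was −0.18 over the 20 shorter and −0.10 over the 15 longer subunits, beside −0.08 and 0.01 over the protein-coding genes of those length classes. As a description over 35 genes that share the same libraries, Spearman's rho between log2 fold change and transcript length was 0.35 for canonical and 0.19 for union exon length. It was 0.16 with GC content and 0.36 with log2 CPM. Over all 14305 tested protein-coding genes, rho was 0.05 with canonical length and 0.20 with GC content. The part of transcript length in the lower levels was not tested by itself. Offsets for union exon length and GC content left 11 subunits called lower, where 3% of all genes were, and 1 called higher (NDUFA5). Among these calls were 9 of the 10 subunits named above. The offsets did not use canonical transcript length, by which the classes above were formed.

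**Figure D4:**
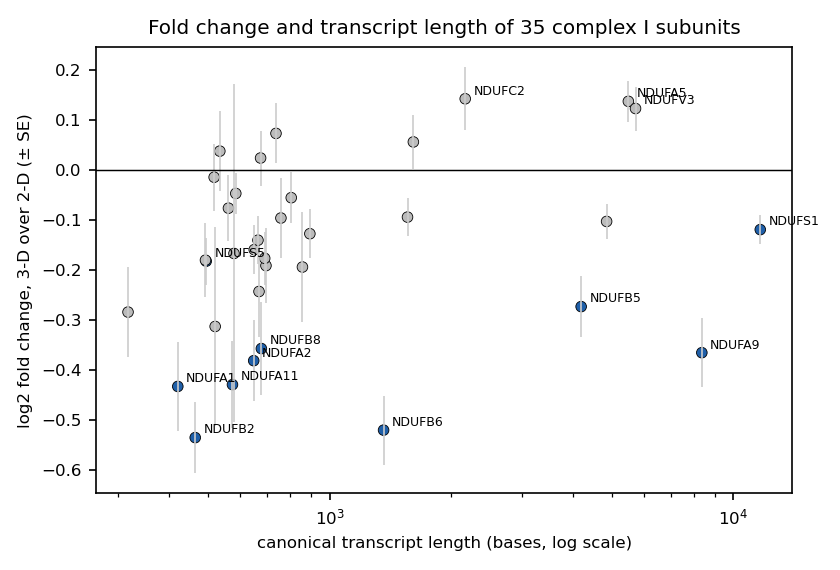
Fitted log2 fold change of 3-D over 2-D (± SE) against canonical transcript length on a log scale for 35 complex I subunits, with blue points for an adjusted p below 0.05. Called subunits are found among short transcripts, such as NDUFA1 and NDUFB2, and among long ones, such as NDUFA9 and NDUFS1.

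Levels of different genes were compared as CPM per kilobase of canonical transcript. NDUFS5 had the highest mean over libraries, with 274, 265, 252 and 222 CPM per kilobase in the libraries in the order given above, and NDUFA7 the lowest among tested subunits with a mean of 1.43, a 177-fold range. NDUFA7 measured 0.726 and 1.04 CPM in 2-D and 0.778 and 0.781 CPM in 3-D, and its conditions overlapped. The order of levels was almost the same in both conditions (Spearman's rho 0.99 over 35 subunits), but it shifted with the length used, since canonical and union exon lengths gave orders with a rho of 0.67.

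Several subunits with low counts share their exons with other annotated genes. At least 50% of the canonical transcript was overlapped in 6 of the 35 subunits, namely NDUFV2 (90%), NDUFA13 (83.9%), NDUFA7 (77.9%), NDUFB8 (72%), NDUFA11 (68.2%) and NDUFS7 (51.3%). The median level of these 6 was 14.9 CPM per kilobase, against 45.2 in the other 29 and 54.0 in the 21 with no overlap. For all but NDUFS7, where it was antisense, the overlap of 50% or more lay on the same strand, with a gene that itself held 0 to 16 counts per library. Smaller antisense overlaps were with RPS28 (11.7% of NDUFA7), which held 3122 to 7052 counts, and with HIF1AN (2.51% of NDUFB8), which held 2327 to 4620. How the counting treated reads on exons shared between genes is not given in the sources used here, so the values of these genes are uncertain, and the part of the overlap in their levels was not tested. Of the 10 called subunits, 8 had at least some overlapped bases, as did 6 of the 25 that were tested and not called.

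**Figure D5:**
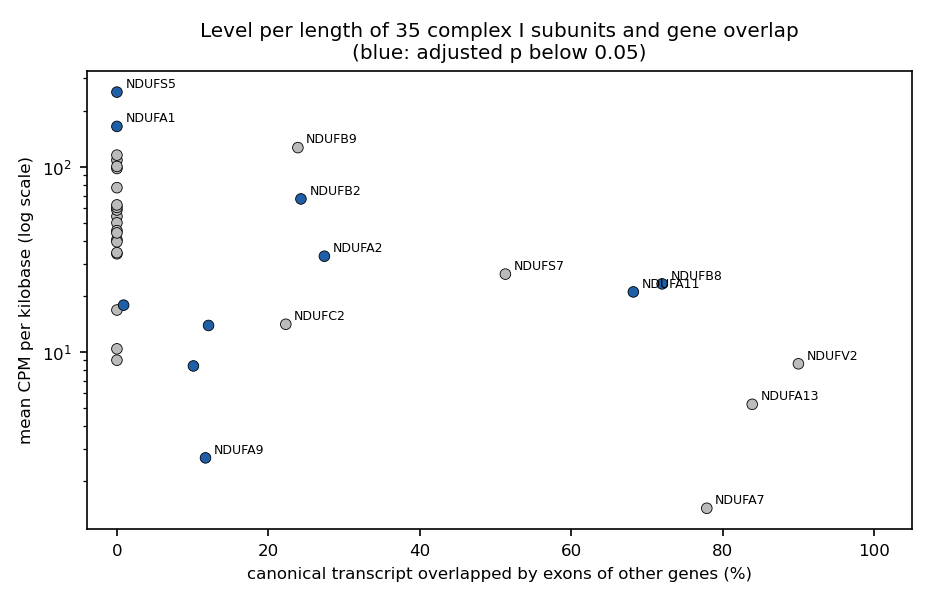
Mean CPM per kilobase on a log scale against the percentage of the canonical transcript overlapped by exons of other genes for 35 complex I subunits, with blue points for an adjusted p below 0.05. No subunit with an overlap of 50% or more is above 26.3 CPM per kilobase, while those without overlap reach 253.

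The 3 NDUF genes that were not tested had few counts or none. NDUFA6, an accessory subunit of the peripheral arm, had 0 counts in every library, where 3 counts correspond to 0.0871 to 0.167 CPM. NDUFA3, of the membrane arm, had 7 and 3 counts in 2-D and 5 and 3 in 3-D. These were the members with near-identical copies elsewhere in hg38, namely 9 for NDUFA3 and 3 for NDUFA6, all on alternate or unplaced contigs. A copy here is an alignment that spans 80% or more of the transcript and matches 98% or more of the aligned bases. A count of 0 therefore limits the reads assigned to the gene and does not show that the RNA is absent. Just under the limit of 98% were copies of NDUFAF2 and NDUFV2 on primary chromosomes. That of NDUFAF2 on chromosome 2 spanned 100% of the transcript with 97.9% identity. That of NDUFV2 on chromosome 19 spanned 94.2% with 97.8% identity. The part of these copies in the levels of NDUFAF2 and NDUFV2 was not tested. NDUFC2-KCTD14 had 0 counts, and all of its canonical transcript is shared with NDUFC2 and KCTD14. The 63 NDUF pseudogenes together held 159 to 384 counts per library, or 0.491% to 0.56% of the counts of NDUF genes. How reads that match both a gene and its pseudogene were counted is not given in the sources used here. These counts therefore do not show how much signal such reads would hold. Only 11 reached 10 counts in a library, namely NDUFV2P1, NDUFA5P11, NDUFA4P1, NDUFAF2P2, NDUFB1P1, NDUFA3P1, NDUFB8P2, NDUFA3P2, NDUFB5P2, NDUFB4P11 and NDUFAF2P1. NDUFV2P1 held the most, with 88 and 61 counts in 2-D and 41 and 45 in 3-D, beside 275 and 241 and 145 and 121 for NDUFV2.

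Promoters were read from RefSeq (GRCh38.p14), from 250 bases before to 50 bases after the start, and were matched by symbol for 40 of the 48 genes. Motifs of factors known for genes of mitochondrial proteins were searched on both strands. The NRF1 motif, GCGCA followed by any base and GCGC, was found in 7 of the 40 promoters (17.5%), against 8.58% of 15843 protein-coding promoters of the same length and 10.8% of the 11505 of tested genes. The YY1 motif AAGATGGC was found in 6 (15%), against 3.91% and 4.94%, and the ETS motif CCGGAAG in 6 (15%), against 14.2% and 17.8%. The SP motif GGGCGG and CCAAT were found in 57.5% and 27.5%, against 58.5% and 36.4% of all and 68.4% and 36.4% of tested genes. All 6 YY1 matches lay 10 to 32 bases after the start on the strand of the gene.

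The NRF1, YY1 and ETS matches in genes that were called lower are shown, in the direction of the gene, with the motif in capitals, so that the setting of each match can be compared. NDUFA1, NDUFS1, NDUFA9 (NRF1) and NDUFA11 carry theirs on the opposite strand, so the capitals are the reverse complement.
NDUFA11, NRF1, chr19:5903869-5903898: ccggtccccgGCGCGTGCGCgcgatccatg
NDUFA9, NRF1, chr12:4649024-4649053: ttcttggttaGCGCTTGCGCagacaggcga
NDUFA9, YY1, chr12:4649114-4649141: attgtgggaaAAGATGGCggctgccgca
NDUFA1, ETS, chrX:119871775-119871801: tccgtcgcttCTTCCGGagccgtacgt
NDUFAF4, ETS, chr6:96898022-96898048: ccacctcccgCCGGAAGcggccctcgt
NDUFS1, ETS, chr2:206159585-206159611: gctggggccaCTTCCGGcggaactgcg
Of the 9 called genes with a promoter, 2 held the NRF1 motif, 3 the ETS motif, 1 the YY1 motif, 5 the SP motif and 1 CCAAT, beside 4, 3, 3, 16 and 9 of the 28 that were tested and not called. A match is a description of letters and says nothing of binding.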

How the data were processed

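The authors depleted ribosomal RNA, sequenced paired ends, trimmed reads with Trim Galore 0.6.3, mapped them to hg38 with HISAT2 2.1.0 and counted them on GENCODE genes with featureCounts 1.6.4 (strand and multi-mapping settings are not given in the sources used here). The authors deposited whole-number counts per gene and library, not normalized, with replicates not pooled. The deposited normalized signal is counts divided by a DESeq2 size factor per library. The same deposited table holds the authors' log2 fold changes, and as scores their standard errors and Wald statistics, with p-values and adjusted p-values, none of which were used.

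Genes were matched by Ensembl identifier to GENCODE release 44 (60295 of 60564), which gives names, positions and lengths. Counts were tested with edgeR 4.0.16 in R 4.3.3 (TMM, its filter on low counts, quasi-likelihood test, condition alone, Benjamini-Hochberg over 22555 genes). SE is the size of the log2 fold change over the square root of F. Alternatives used DESeq2 1.42.0 and limma 3.58.1. DESeq2 was run on the same 22555 genes, with its own filter on mean count turned off. Copies were found with minimap2 2.31-r1302. The steps were also run on simulated counts. These had the same variability beyond counting noise for every gene and no effect of length, GC content or replicate. They therefore cannot show how such effects were handled. NDUF genes, lists and motifs were chosen with earlier results of these data known. Values of 1 gene are not reported here. Full values are given for called NDUF genes, the highest and lowest level per kilobase and the 3 largest changes in each direction among those not called. Replicates are named as biological by the study, and precision is limited by 2 per condition.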

Additional observations from a re-analysis of the deposited data

How the results depend on the processing

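No called NDUF gene and neither median changed direction under any of the 16 alternatives. Subunits called numbered 10 with edgeR's quasi-likelihood test, 3 with DESeq2 and 19 with library size only as scaling, and 5 to 17 when a library was left out. Library size only also turned the split of all calls from 758 lower and 1024 higher to 1879 lower and 514 higher. It moved the median log2 fold change of the subunits from −0.16 to −0.22, that of NDUFAF genes from −0.073 to −0.14 and the log2 ratio of the summed subunits from −0.13 to −0.20. Leaving out a library gave −0.18 to −0.087 for the summed subunits and medians of −0.17 to −0.11 for the subunits and −0.084 to −0.064 for NDUFAF genes, in fits where the lone library of a condition is assumed to vary like the other condition. Offsets for union exon length and GC content gave a median of −0.063 for NDUFAF genes, and −0.063 with the replicate block as well. Calls among the other assembly factors numbered 2, but 0 with DESeq2, 1 with edgeR's likelihood ratio test, 1 with the offsets, and 0 to 2 when a library was left out. NDUFAF4 was called under each of the 16 alternatives. With no filter on low counts 15 subunits were called lower, where 2.67% of 42231 genes were. edgeR without its legacy mode called 10. That setting and the union exon lengths were added after seeing the data.

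Over all tested genes, deviations of same-numbered libraries had a correlation of −0.01, which cannot exclude a factor shared by some genes. All 7 MT-ND genes were lower in replicate 2 than in replicate 1 in both conditions. So were 220 (2-D) and 205 (3-D) of 327 protein-coding genes under 700 bases, beside 7079 and 6644 of 13978 longer ones. Whether same-numbered libraries share a source was not tested. With the replicate as a block, 14 subunits were called, 13 lower, where 4.19% of all tested genes were, and 1 higher (NDUFA5), where 5.42% were. With 2 libraries per condition, a missing call does not show that a gene was equal in both conditions.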
